A study of Mus musculus with 4 samples.

Results

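Described here are 40 mouse genes of the cell division cycle, 40 of the 23444 genes measured. They were taken by symbol from a list of genes known to act in DNA replication, in the G1 phase and in mitosis, and all 40 symbols were in the table. RNA was sequenced from epithelial lung cells sorted for the surface protein EpCAM from mouse embryos at E18.5, a late embryonic day shortly before birth. Embryos carried a conditional knockout of Emc3 (KO, 2 libraries) or were wild-type (WT, 2 libraries). Emc3 encodes a core subunit of the endoplasmic reticulum membrane protein complex, which inserts membrane proteins. The series describes the knockout as made in the developing lung epithelium; neither the promoter that drove recombination nor the number of embryos behind a library is given in the sources used here.

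Levels are in RPKM as deposited by the authors, that is reads divided by gene length and by the reads of the library, so they can be set side by side between genes. An error after ± is the SD of n = 2 libraries. Libraries are named KO 35, KO 27, WT 35 and WT 27, by the mutant or control in the heading of their column and by the leading number there, whose meaning is not given. The labels conflict: the sample titles call both libraries numbered 35 knockout and both numbered 27 wild-type. Emc3 followed the column headings, with 2.33 RPKM (KO 35) and 2.28 RPKM (KO 27), against 18 RPKM (WT 35) and 14.2 RPKM (WT 27). Every KO against WT result below uses the headings, and the titles' grouping is reported as libraries numbered 35 against libraries numbered 27. By Xist and Eif2s3y, KO 35 and WT 27 were female libraries and KO 27 and WT 35 male ones, so neither comparison over all 4 libraries set the sexes against each other, while every comparison of 2 libraries of 1 genotype or of 1 number did. RPKM totals ran from 141373 to 169294, and relative depth differed by a ratio of at most 1.10, while the number of reads is unknown. Epcam was at 53.9 RPKM (KO 35) and 52.9 RPKM (KO 27), against 46.2 RPKM (WT 35) and 35.2 RPKM (WT 27).

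A dividing cell passes through G1, copies its DNA in S phase and separates the copies in mitosis. D-type cyclins with CDK4 or CDK6 inactivate the retinoblastoma protein, which frees E2F factors to switch on genes for the replication machinery. Genes of mitosis are switched on later, by a complex that reads a promoter element called the cell cycle genes homology region (CHR), often beside CCAAT boxes. In the lung, epithelial division slows late in gestation while alveolar cells mature.

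The 40 members were grouped by role. There were 13 replication genes (Mcm2 to Mcm7, Cdc6, Cdt1, Gins2, Pcna, Rrm1, Rrm2 and Tyms) and 14 mitosis genes (Cdk1, Ccnb1, Ccnb2, Plk1, Aurka, Aurkb, Bub1, Bub1b, Cdc20, Birc5, Kif11, Kif20a, Cenpe and Cenpf). Of the other 13, E2f1, Ccne1, Ccne2 and Cdk2 act at entry into S phase, Ccnd1, Ccnd2, Ccnd3, Cdk4 and Cdk6 in G1, and Cdkn1b encodes a kinase inhibitor. Mki67, Top2a and Ccna2 are expressed from S phase into mitosis and were kept apart from both classes.

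Promoter windows of 300 bases, 250 before to 50 after the start, show what the classes share in sequence; they came from RefSeq (GRCm38.p6) and covered 32 of the 40 members with 34 windows. Mcm4, Gins2, Ccne2, Ccnd1, Ccnd2, Ccna2, Aurkb and Kif20a had none. Searched on both strands were the E2F words TTTGGCGC, TTTCCCGC, TTTCGCGC and TTTGCCGC, the CHR core TTTGAA, and CCAAT. E2F words and CCAAT can share end letters, as they do at the E2F word that begins at 17 in Mcm7. An E2F word was in 6 of 12 replication windows (50%) and in 1 of 12 mitosis windows (8.33%), beside 2.26% of all 32851 windows. The CHR core was in 8 of 12 mitosis windows (66.7%) and in 1 of 12 replication windows (8.33%), beside 17.9% of all windows. Replication and mitosis genes that are not members were searched too. An E2F word was in 11 of 46 windows of such replication genes (23.9%), a smaller share than in the members, and in 5 of 50 of such mitosis genes (10%). The CHR core was in 9 of 46 (19.6%) and 35 of 50 (70%). CCAAT was in 11 of 12 mitosis windows (91.7%), in 9 of 12 replication windows (75%) and in 37.4% of all windows. Some genes have several windows, and a match is a description of the letters, not a site of binding.

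**Figure D1:**
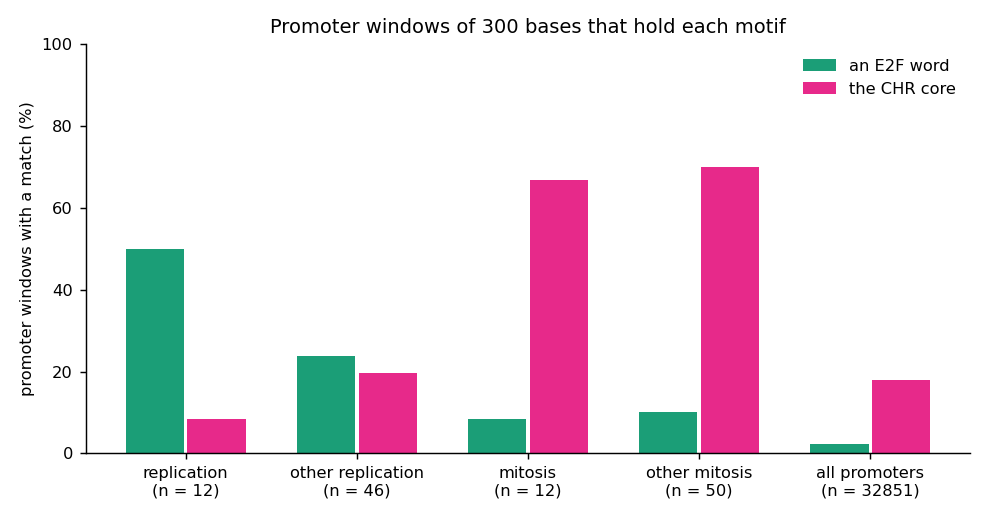
Share of promoter windows of 300 bases that hold an E2F word or the CHR core (y axis, percent) for members and other genes of replication and mitosis and for all windows (x axis, n is the number of windows). Bars of 50% or more are those of the CHR core in both mitosis sets and of the E2F words in the replication members.

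The replication members with an E2F word and the highest mean RPKM were Mcm7, Mcm6 and Mcm3, which encode subunits of the replicative helicase. Their windows are printed 5′ to 3′ on the gene's strand with each E2F word, or its reverse complement, in capitals; a position is counted from the transcript start. Mcm7 (chr5:138171834-138172133, minus strand) has words that begin at -165 and 17, Mcm6 (chr1:128359656-128359955, minus strand) at -110, -106 and -47, where the first pair overlap, and Mcm3 (chr1:20820263-20820562, minus strand) at 20 and 39.
Mcm7: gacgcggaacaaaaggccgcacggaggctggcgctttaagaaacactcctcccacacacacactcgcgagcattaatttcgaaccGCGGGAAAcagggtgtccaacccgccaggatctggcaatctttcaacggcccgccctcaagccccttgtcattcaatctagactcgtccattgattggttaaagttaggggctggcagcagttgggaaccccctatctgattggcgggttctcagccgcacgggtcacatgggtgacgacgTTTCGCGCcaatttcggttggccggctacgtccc
Mcm6: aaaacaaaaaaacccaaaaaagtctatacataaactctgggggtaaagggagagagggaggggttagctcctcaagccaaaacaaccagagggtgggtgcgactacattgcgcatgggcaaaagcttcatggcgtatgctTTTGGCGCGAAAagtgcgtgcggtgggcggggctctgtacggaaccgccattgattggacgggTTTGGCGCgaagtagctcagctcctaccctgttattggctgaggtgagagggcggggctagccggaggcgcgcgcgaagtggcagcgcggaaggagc
Mcm3: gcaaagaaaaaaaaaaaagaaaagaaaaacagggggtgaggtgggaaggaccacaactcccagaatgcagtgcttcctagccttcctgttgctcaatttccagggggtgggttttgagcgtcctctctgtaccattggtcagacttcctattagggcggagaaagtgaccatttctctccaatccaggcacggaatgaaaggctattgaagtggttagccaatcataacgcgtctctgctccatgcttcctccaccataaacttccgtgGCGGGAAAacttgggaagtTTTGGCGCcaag

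The mitosis members with a CHR core and the highest mean RPKM were Ccnb2 (cyclin B2), Cdc20 (an activator of the anaphase-promoting complex) and Bub1b (a spindle checkpoint kinase-like protein). Capitals mark TTTGAA, which begins at -167 and 5 in Ccnb2 (chr9:70421505-70421804, minus strand), at -18 in Cdc20 (chr4:118437294-118437593, minus strand) and at 41 in Bub1b (chr2:118597961-118598260, plus strand). The values of these 6 genes stand with their classes below.
Ccnb2: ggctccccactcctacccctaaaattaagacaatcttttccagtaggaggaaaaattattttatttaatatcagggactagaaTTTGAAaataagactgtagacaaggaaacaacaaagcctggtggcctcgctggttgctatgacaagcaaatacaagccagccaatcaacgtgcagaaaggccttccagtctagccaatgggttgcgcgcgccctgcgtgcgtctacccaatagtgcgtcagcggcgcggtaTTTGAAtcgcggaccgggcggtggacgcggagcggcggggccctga
Cdc20: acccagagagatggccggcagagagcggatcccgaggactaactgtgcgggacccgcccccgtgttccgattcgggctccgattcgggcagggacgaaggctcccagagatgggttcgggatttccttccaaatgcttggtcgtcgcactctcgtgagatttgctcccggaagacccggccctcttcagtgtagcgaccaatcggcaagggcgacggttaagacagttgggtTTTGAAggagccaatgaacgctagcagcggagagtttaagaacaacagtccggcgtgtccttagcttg
Bub1b: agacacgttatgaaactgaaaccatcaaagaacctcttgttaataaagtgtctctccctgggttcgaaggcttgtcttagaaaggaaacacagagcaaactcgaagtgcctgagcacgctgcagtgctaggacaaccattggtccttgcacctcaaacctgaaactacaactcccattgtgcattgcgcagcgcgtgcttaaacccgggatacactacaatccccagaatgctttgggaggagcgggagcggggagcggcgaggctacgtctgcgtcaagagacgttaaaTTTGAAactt

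Most members were expressed at low levels. Cdk4 had the highest level, 21.2 RPKM (KO 35) and 22 RPKM (KO 27), against 17.9 RPKM (WT 35) and 20.7 RPKM (WT 27). Pcna and the D-type cyclins came next, between 5.77 and 11.6 RPKM, while the mitosis members lay between 0.071 RPKM (Birc5 in WT 35) and 2.33 RPKM (Cdc20 in WT 27). No member was at 0 in any library. With values this low and an unknown number of reads, the counting error of a single member may be large and could not be computed.

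**Figure D2:**
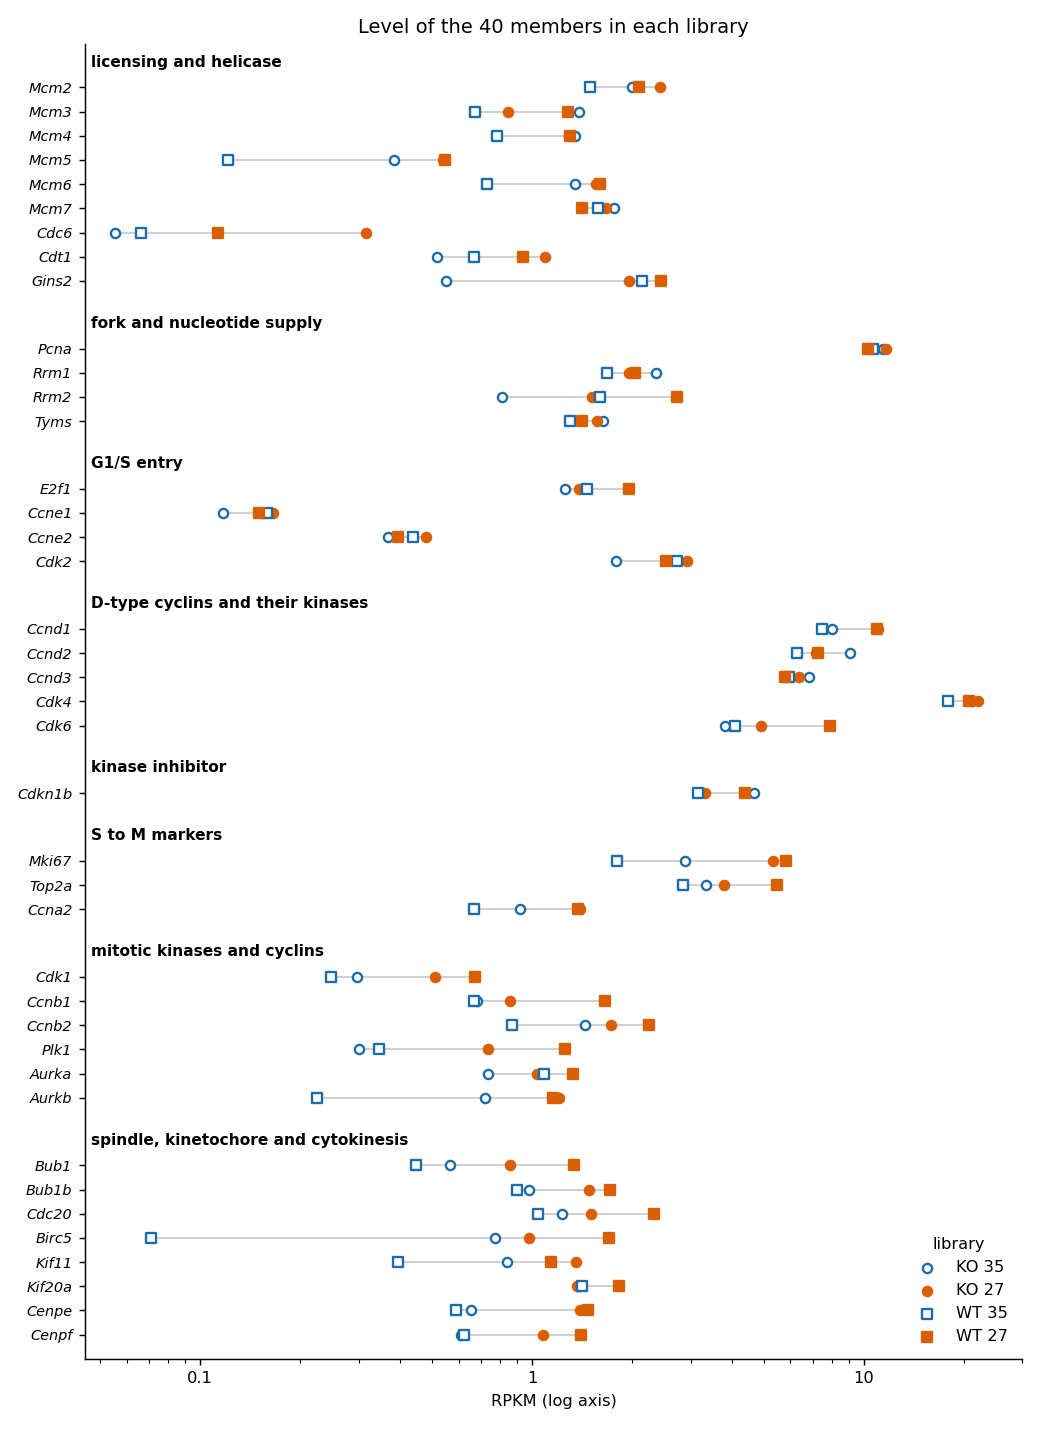
RPKM of the 40 members (x axis, log scale) by role (y axis), with KO libraries as circles and WT libraries as squares, and libraries numbered 35 open and those numbered 27 filled. Open symbols lie left of both filled ones in 12 of the 14 mitosis rows and in all 3 S to M rows, whereas circles and squares are mixed.

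The first comparison asked whether these genes differed between KO and WT epithelium, the contrast for which the study was designed. None of the 40 passed the test. The median log2 difference, KO minus WT in log2(RPKM + 1), the scale of every log2 value here, was 0.05 over all 40 (23 above 0, 17 below), 0.13 over the replication members (10 above 0 of 13) and -0.08 over the mitosis members (9 below 0 of 14). It was 0.06 over all 10128 genes tested. The test was limma, run on every gene that reached 1 RPKM in 2 or more libraries, and 30 members entered it: 0 of 30 had an adjusted p under 0.05 and 0 of 30 an unadjusted p under 0.05, beside 7 of 10128 genes (0.0691%) and 1402 genes (13.8%). The lowest adjusted p of a member was 0.419, for Rrm2. Among the 35 members with a mean of at least 0.5 RPKM, KO and WT libraries did not overlap for 10, with 5 higher and 5 lower in KO, which is a smaller share than the 45.2% of all 11596 such genes. Rescaling each library to a common total moved the median of all genes to 0.18, that of the replication members to 0.22 and that of the mitosis members to -0.03, so relative to all genes the order of the classes stayed. The SE of the log2 difference ran from 0.13 (Pcna) to 0.45 (Mki67) over the 30 tested members.

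Of the 9 helicase and origin licensing genes, 7 overlapped between the genotypes, and WT 35 was the lowest library for 5 of the 9. With no overlap, Mcm7 was higher and Gins2 lower in KO. Of all 17625 genes above 0 in a library, 24.13% were higher and 16.05% lower in KO with no overlap. The MCM2 to MCM7 proteins form the ring that unwinds DNA. Mcm2 was at 2.0 RPKM (KO 35) and 2.42 RPKM (KO 27), against 1.49 RPKM (WT 35) and 2.09 RPKM (WT 27). Mcm3 was at 1.38 RPKM (KO 35) and 0.844 RPKM (KO 27), against 0.673 RPKM (WT 35) and 1.28 RPKM (WT 27). Both were lowest in WT 35, and the groups overlapped. Mcm4 had 1.35 RPKM (KO 35) and 1.29 RPKM (KO 27), against 0.785 RPKM (WT 35) and 1.3 RPKM (WT 27). Mcm6 had 1.34 RPKM (KO 35) and 1.55 RPKM (KO 27), against 0.733 RPKM (WT 35) and 1.6 RPKM (WT 27). For Mcm4 and Mcm6, 3 libraries were close to each other and WT 35 stood below them. Mcm5 had 0.384 RPKM (KO 35) and 0.54 RPKM (KO 27), against 0.121 RPKM (WT 35) and 0.548 RPKM (WT 27), and did not reach the filter of the test. Mcm7 differed in having both KO libraries above both WT libraries, with 1.77 RPKM (KO 35) and 1.67 RPKM (KO 27), against 1.58 RPKM (WT 35) and 1.41 RPKM (WT 27) (log2 difference 0.12, SE 0.14, limma adjusted p = 0.759).

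Cdc6 and Cdt1, which load the MCM ring onto origins, were both lower in the libraries numbered 35 with no overlap. So were Mcm2, Mcm5 and Mcm6, which makes 5 of the 9 helicase and licensing genes. Of all 17625 genes above 0 in a library, 14.6% were lower in this way. Cdc6 was at 0.0556 RPKM (KO 35) and 0.0663 RPKM (WT 35), against 0.315 RPKM (KO 27) and 0.113 RPKM (WT 27). Cdt1 was at 0.517 RPKM (KO 35) and 0.666 RPKM (WT 35), against 1.09 RPKM (KO 27) and 0.941 RPKM (WT 27). Neither reached the filter of the test. Gins2 encodes a subunit of GINS, which activates the loaded helicase, and was at 0.548 RPKM (KO 35) and 1.96 RPKM (KO 27), against 2.14 RPKM (WT 35) and 2.45 RPKM (WT 27) (GRCm38 chromosome 8, 120581266 to 120589075). Only KO 35 was low, and the log2 difference KO minus WT was -0.62 (SE 0.31, limma adjusted p = 0.462). In the authors' deposited table Gins2 was the member with a p-value under 0.05, 0.0104, with a fold change of -8.19, against a ratio of the mean RPKM of 0.547.

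At the fork and in the supply of nucleotides, 3 of 4 genes had a slightly higher mean in KO, Pcna and Tyms with no overlap and Rrm1 with overlap. Rrm2 was lower. Of all 10128 genes tested, 5996 had a higher mean in KO, and 30.05% were higher and 16.33% lower with no overlap. Pcna encodes the sliding clamp of DNA polymerase and was at 11.4 RPKM (KO 35) and 11.6 RPKM (KO 27), against 10.7 RPKM (WT 35) and 10.3 RPKM (WT 27). Tyms, thymidylate synthase, was at 1.64 RPKM (KO 35) and 1.56 RPKM (KO 27), against 1.3 RPKM (WT 35) and 1.41 RPKM (WT 27). Both had KO libraries above WT libraries by less than a log2 difference of 0.15 (Pcna 0.13, SE 0.13, limma adjusted p = 0.725; Tyms 0.14, SE 0.14, limma adjusted p = 0.723). Rrm1 and Rrm2 encode the large and small subunits of ribonucleotide reductase, which makes deoxyribonucleotides. Rrm1 had 2.36 RPKM (KO 35) and 1.96 RPKM (KO 27), against 1.69 RPKM (WT 35) and 2.04 RPKM (WT 27). Rrm2 had 0.812 RPKM (KO 35) and 1.51 RPKM (KO 27), against 1.6 RPKM (WT 35) and 2.73 RPKM (WT 27), a mean of 1.16 ± 0.493 RPKM in KO, against 2.17 ± 0.799 RPKM in WT (GRCm38 chromosome 12, 24708254 to 24714146). Both KO libraries were below both WT libraries for Rrm2, with a log2 difference of -0.55 (SE 0.25, limma adjusted p = 0.419), and the lower WT library differed little from the higher KO library.

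Genes of S phase entry did not separate the genotypes consistently. E2f1, an E2F factor that switches on replication genes, had 1.26 RPKM (KO 35) and 1.38 RPKM (KO 27), against 1.46 RPKM (WT 35) and 1.96 RPKM (WT 27), with both KO libraries lower (log2 difference -0.22, SE 0.16, limma adjusted p = 0.629). Cdk2, the kinase partner of cyclin E, had 1.79 RPKM (KO 35) and 2.93 RPKM (KO 27), against 2.73 RPKM (WT 35) and 2.52 RPKM (WT 27). KO 35 was low and the other 3 libraries were close. Ccne1 and Ccne2, the E-type cyclins, stayed between 0.117 and 0.478 RPKM in every library and did not reach the filter.

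The G1 genes were among the more abundant members. Ccnd1, cyclin D1, was at 8.0 RPKM (KO 35) and 7.49 RPKM (WT 35), against 11 RPKM (KO 27) and 11 RPKM (WT 27). Its KO and WT libraries overlapped, while both libraries numbered 35 were lower. Ccnd2 was at 9.09 RPKM (KO 35) and 7.17 RPKM (KO 27), against 6.29 RPKM (WT 35) and 7.28 RPKM (WT 27). Ccnd3 was at 6.8 RPKM (KO 35) and 6.38 RPKM (KO 27), against 5.92 RPKM (WT 35) and 5.77 RPKM (WT 27), and these KO libraries were both above the WT ones (log2 difference 0.15, SE 0.13, limma adjusted p = 0.679). The same held for Cdk4, whose values are given above (log2 difference 0.16, SE 0.14, limma adjusted p = 0.70). Thus 2 of the 5 genes were higher in KO with no overlap and 0 lower, beside 30.05% and 16.33% of all 10128 genes tested. Cdk6, a kinase partner of the D-type cyclins, was at 3.81 RPKM (KO 35) and 4.08 RPKM (WT 35), against 4.91 RPKM (KO 27) and 7.87 RPKM (WT 27), and WT 27 stood above the other 3. Cdkn1b, which encodes an inhibitor of cyclin-dependent kinases, was at 4.67 RPKM (KO 35) and 3.31 RPKM (KO 27), against 3.17 RPKM (WT 35) and 4.39 RPKM (WT 27), with overlapping groups.

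The mitosis members overlapped between the genotypes for 12 of 14. For the other 2, Aurka and Kif20a, both KO libraries were below both WT libraries, and none had both KO libraries above. Of all 17625 genes above 0 in a library, 16.05% were lower and 24.13% higher in KO with no overlap. The 2 of 14 (14.29%) are thus close to the share of all genes. Aurka, a kinase of the spindle poles, was at 0.736 RPKM (KO 35) and 1.03 RPKM (KO 27), against 1.08 RPKM (WT 35) and 1.33 RPKM (WT 27) (log2 difference -0.23, SE 0.17, limma adjusted p = 0.622). Kif20a, a kinesin of the central spindle, was at 1.4 RPKM (KO 35) and 1.37 RPKM (KO 27), against 1.42 RPKM (WT 35) and 1.82 RPKM (WT 27) (log2 difference -0.13, SE 0.16, limma adjusted p = 0.765). For the 12 that overlapped, the WT libraries lay on either side of 1 or both KO libraries. The direction of the class depended on which pair was compared: between KO 35 and WT 35 the median log2 difference was 0.06, with 10 of 14 genes higher in KO, and between KO 27 and WT 27 it was -0.23, with 12 of 14 lower in KO. For the replication members the median was 0.20 in the libraries numbered 35, with 9 of 13 higher in KO, and -0.0035 in those numbered 27, with 7 of 13 lower in KO. These are pairs of single libraries with no test, and they set female against male (KO 35 and WT 35) and male against female (KO 27 and WT 27), so number and sex cannot be told apart in them. Leaving out WT 27 moved the mitosis median to 0.22 and leaving out KO 35 to 0.07, while leaving out WT 35 moved it to -0.32 and leaving out KO 27 to -0.21.

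**Figure D3:**
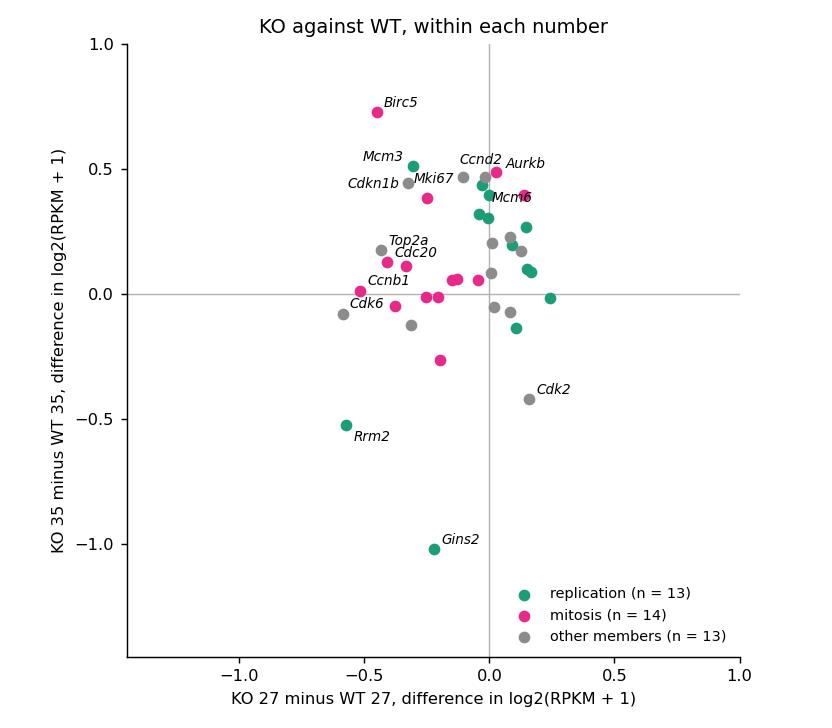
Difference KO minus WT in log2(RPKM + 1) of the 40 members between the libraries numbered 27 (x axis) and those numbered 35 (y axis). Most mitosis points lie left of 0 on the x axis and about 0 or above on the y axis, so the pairs disagree for most of that class. Rrm2, Gins2, E2f1, Cdk6, Aurka, Plk1, Kif20a and Cenpf lie below 0 on both axes. Other members, such as Mcm2 and Kif11, lie above 0 on both.

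The grouping of the sample titles was compared next. Mitosis genes were lower in the libraries numbered 35 than in those numbered 27: all 14 had a negative difference, the median RPKM ratio was 0.495, and both libraries numbered 35 lay below both numbered 27 for 12 of 14, all but Aurka and Kif20a. Replication genes differed less, with a median ratio of 0.772, 10 of 13 negative and 5 of 13 with no overlap. The class was uneven. All 5 were among the 9 helicase and licensing genes, whose median ratio was 0.657. The 4 genes of the fork and nucleotide supply had a median ratio of 0.997, and 0 of them separated. The median log2 difference, 35 minus 27, was -0.47 for mitosis (from -0.75 to -0.10), -0.19 for replication and -0.33 for all 40 members (34 negative), beside 0.03 for all genes tested. In a bulk sample, fewer dividing cells and less of these RNAs per cell cannot be told apart. No member passed the limma test: 0 of 30 tested had an adjusted p under 0.05 (lowest 0.998), beside 4 of 10128 genes (0.0395%). An unadjusted p under 0.05 was reached by 6 of 30 members, all lower in the libraries numbered 35, and by 386 genes (3.81%). Of the 30, 6 passed the filter only through the libraries numbered 27, 5 of them mitosis genes, so these 6 had to differ. Aurkb, Bub1b, Cenpe and Cenpf, 4 of the 6 with an unadjusted p under 0.05, are among them, so that count says nothing about the class and no test value is given for these 4; the others are Mki67 and Ccnd1. Over the 35 members with a mean of at least 0.5 RPKM, which does not favour either group, both libraries numbered 35 were below both numbered 27 for 19 members, 11 of 13 mitosis and 3 of 11 replication genes, beside 14.4% of 11596 genes, and above them for 0 members. Counts of members are no test, since genes of the cell cycle vary together.

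Among the S to M genes, Mki67, a marker of dividing cells, was at 2.88 RPKM (KO 35) and 1.81 RPKM (WT 35), against 5.33 RPKM (KO 27) and 5.82 RPKM (WT 27) (GRCm38 chromosome 7, 135689784 to 135716450). The mean was 2.34 ± 0.759 RPKM in the libraries numbered 35, against 5.57 ± 0.341 RPKM in those numbered 27, and the log2 difference -0.99 (SE 0.20, limma adjusted p = 0.998). Top2a, the topoisomerase that untangles replicated DNA, was at 3.34 RPKM (KO 35) and 2.84 RPKM (WT 35), against 3.79 RPKM (KO 27) and 5.47 RPKM (WT 27). Ccna2, cyclin A2, was at 0.919 RPKM (KO 35) and 0.667 RPKM (WT 35), against 1.39 RPKM (KO 27) and 1.37 RPKM (WT 27). In all 3 genes both libraries numbered 35 were below both numbered 27, and WT 35 was the lowest library. Of the 11596 genes with a mean of at least 0.5 RPKM, 14.4% were separated in this direction. Ccna2 passed the filter of the test only through the libraries numbered 27.

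The kinases and cyclins that drive entry into mitosis were also lower in the libraries numbered 35, apart from Aurka, whose groups overlapped. That is 5 of 6 genes, beside 14.6% of the 17625 genes above 0 in a library. Cdk1, the mitotic kinase, was at 0.297 RPKM (KO 35) and 0.247 RPKM (WT 35), against 0.511 RPKM (KO 27) and 0.675 RPKM (WT 27). Its partner cyclin B1, Ccnb1, was at 0.681 RPKM (KO 35) and 0.666 RPKM (WT 35), against 0.855 RPKM (KO 27) and 1.65 RPKM (WT 27). Ccnb2, cyclin B2, was at 1.44 RPKM (KO 35) and 0.868 RPKM (WT 35), against 1.73 RPKM (KO 27) and 2.25 RPKM (WT 27). WT 27 was the highest library for all 3 genes. Plk1, a kinase of spindle assembly and mitotic exit, was at 0.302 RPKM (KO 35) and 0.346 RPKM (WT 35), against 0.737 RPKM (KO 27) and 1.26 RPKM (WT 27). Aurkb, the kinase of the chromosomal passenger complex, was at 0.72 RPKM (KO 35) and 0.224 RPKM (WT 35), against 1.2 RPKM (KO 27) and 1.16 RPKM (WT 27) (GRCm38 chromosome 11, 69045624 to 69051664). Cdk1, Ccnb1 and Plk1 did not reach the filter of the test.

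Birc5, whose product survivin belongs to the same complex as Aurkb, had the widest range of the mitosis members, 0.773 RPKM (KO 35) and 0.071 RPKM (WT 35), against 0.979 RPKM (KO 27) and 1.7 RPKM (WT 27). WT 35 was far below the other 3 libraries. Spindle checkpoint genes followed: Bub1 was at 0.565 RPKM (KO 35) and 0.448 RPKM (WT 35), against 0.855 RPKM (KO 27) and 1.34 RPKM (WT 27). Bub1b was at 0.981 RPKM (KO 35) and 0.899 RPKM (WT 35), against 1.48 RPKM (KO 27) and 1.72 RPKM (WT 27) (GRCm38 chromosome 2, 118598202 to 118641592). Cdc20, the checkpoint's target, was at 1.23 RPKM (KO 35) and 1.04 RPKM (WT 35), against 1.5 RPKM (KO 27) and 2.33 RPKM (WT 27). In each of these genes, the higher library numbered 35 was below the lower one numbered 27, beside 14.6% of the 17625 genes above 0 in a library.

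Motor and kinetochore genes completed the class. Kif11, the kinesin that pushes spindle poles apart, was at 0.837 RPKM (KO 35) and 0.394 RPKM (WT 35), against 1.36 RPKM (KO 27) and 1.14 RPKM (WT 27). Cenpe, a kinesin of the kinetochore, was at 0.653 RPKM (KO 35) and 0.59 RPKM (WT 35), against 1.39 RPKM (KO 27) and 1.47 RPKM (WT 27) (GRCm38 chromosome 3, 135212563 to 135273540), and its 4 values fell into 2 close pairs, 0.621 ± 0.0444 RPKM at 35, against 1.43 ± 0.0568 RPKM at 27. Cenpf, a kinetochore protein made in G2 and mitosis, was at 0.609 RPKM (KO 35) and 0.621 RPKM (WT 35), against 1.08 RPKM (KO 27) and 1.4 RPKM (WT 27). Outside the class, the G1 gene Ccnd1 was at 7.75 ± 0.362 RPKM at 35, against 11 ± 0.0323 RPKM at 27 (log2 difference -0.45, SE 0.14, limma adjusted p = 0.998).

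**Figure D4:**
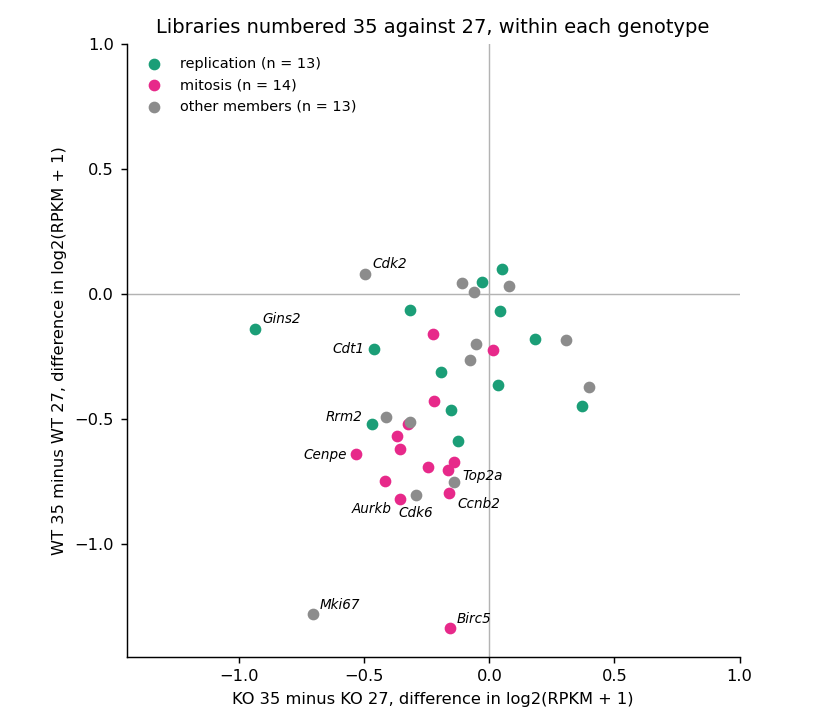
Difference 35 minus 27 in log2(RPKM + 1) of the 40 members within KO (x axis) and within WT (y axis). All but 1 of the 14 mitosis points lie below 0 on both axes, most of them further below on the y axis, while replication points spread around 0 on the x axis.

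The mitosis members were lower in the library numbered 35 within each genotype, by a larger median in WT, but these pairs also differ in sex: KO 35 is female and KO 27 male, whereas WT 35 is male and WT 27 female. Within KO the mitosis median was -0.24 (13 of 14 negative), and the summed RPKM of the class in KO 35 was 0.698 of that in KO 27. Within WT the median was -0.65 (14 of 14 negative), and the sum in WT 35 was 0.420 of that in WT 27. The replication medians were -0.12 within KO (8 of 13 negative) and -0.22 within WT (11 of 13 negative), with sums in the library numbered 35 at 0.90 and 0.834 of those in the library numbered 27. Each is 1 library against 1, so the difference between the genotypes was not tested, and it cannot be told apart from a difference by sex. Without WT 35 all 14 mitosis genes remained negative (median -0.38), and without WT 27 it was 13 of 14 (median -0.36).

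Library by library, the classes ranked alike but moved by different amounts. Mean log2(RPKM + 1) of the replication members was 1.24 (KO 35) and 1.40 (KO 27), against 1.17 (WT 35) and 1.42 (WT 27). The mitosis mean was 0.824 (KO 35) and 1.09 (KO 27), against 0.674 (WT 35) and 1.31 (WT 27). Mitosis minus replication was therefore furthest below 0 in WT 35, at -0.50, and closest to 0 in WT 27, at -0.11. Summed RPKM gave the same order: mitosis over replication was 0.440 (KO 35) and 0.567 (KO 27), against 0.379 (WT 35) and 0.754 (WT 27). Pcna held a large share of the replication sum, and without it the ratios were 0.793 (KO 35) and 0.962 (KO 27), against 0.694 (WT 35) and 1.19 (WT 27). WT 27 was the highest library for 12 of 14 mitosis and 4 of 13 replication genes, and WT 35 was the lowest for 10 of 14 and 7 of 13. The classes contain different genes of low level and no test between them was made.

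**Figure D5:**
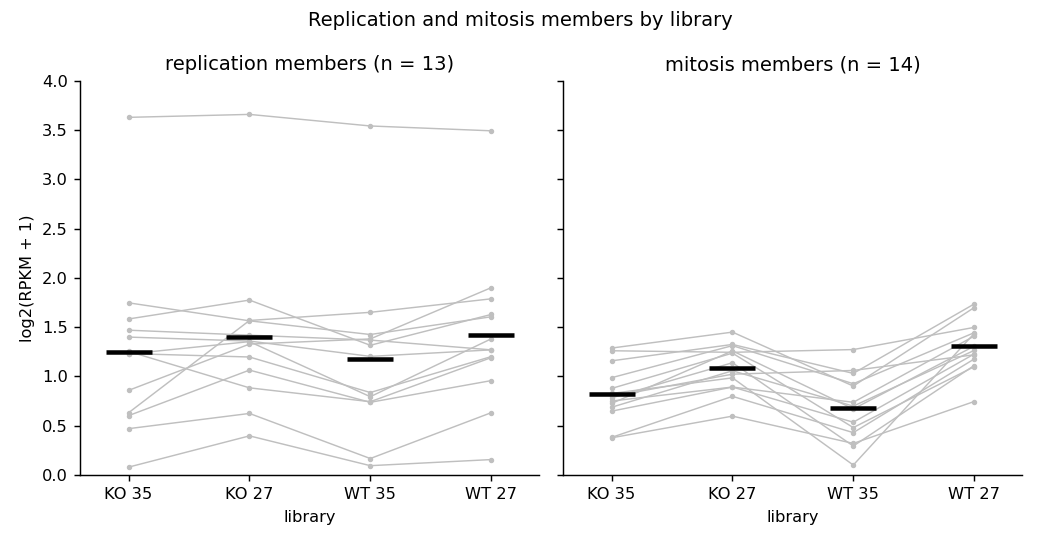
Level of each of the 13 replication and 14 mitosis members in log2(RPKM + 1) (y axis) by library (x axis), with a grey line per gene and a black bar at the class mean. The mitosis bars lie between 0.674 in WT 35 and 1.31 in WT 27, and the replication bars between 1.17 and 1.42.

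Other genes of the same processes, on lists that the members are not part of, also had a lower median for mitosis than for replication, with smaller values than the members; the difference was not tested. Of 55 other mitosis genes, 50 were lower in the libraries numbered 35, 30 with no overlap (1 was higher with no overlap), with a median ratio of 0.615 and a median log2 difference of -0.19. Of 45 other replication genes, 29 were lower, 12 with no overlap (3 were higher with no overlap), with a median ratio of 0.909 and a median log2 difference of -0.08. Of the 17625 genes above 0 in a library, 14.6% were lower and 15.8% higher with no overlap. None of the 24 and 27 tested passed. Ube2c, the ubiquitin-conjugating enzyme of the anaphase-promoting complex, was at 3.82 RPKM (KO 35) and 1.72 RPKM (WT 35), against 8.5 RPKM (KO 27) and 11.4 RPKM (WT 27) (log2 difference -1.58, SE 0.32, limma adjusted p = 0.998). Cdca3, a cell division gene, was at 0.291 RPKM (KO 35) and 0.141 RPKM (WT 35), against 1.17 RPKM (KO 27) and 1.08 RPKM (WT 27). Of the other replication genes, Prim2, a primase subunit, was at 1.25 RPKM (KO 35) and 1.69 RPKM (WT 35), against 2.15 RPKM (KO 27) and 2.46 RPKM (WT 27). Uhrf1, which carries DNA methylation to new strands, was at 0.659 RPKM (KO 35) and 0.86 RPKM (WT 35), against 1.14 RPKM (KO 27) and 1.5 RPKM (WT 27). Both libraries numbered 35 were below both numbered 27 for all 4 genes. These 4 were picked for the lowest p of their lists in this comparison, so their separation follows from the choice. Cdca3 and Uhrf1 also passed the filter only through the libraries numbered 27.

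Between KO and WT, none of the 27 other replication genes tested and none of the 24 other mitosis genes tested passed (medians 0.0035 and -0.03). With no overlap, 11 of 45 replication genes were higher in KO and 5 lower, and 4 of 55 mitosis genes were higher and 11 lower. Of all 17625 genes above 0 in a library, 24.13% were higher and 16.05% lower. The genes named next were picked for the lowest p of their lists in this comparison, so separation of their groups follows in part from the choice. Prim1, a primase subunit, was at 1.75 RPKM (KO 35) and 1.94 RPKM (KO 27), against 0.727 RPKM (WT 35) and 1.18 RPKM (WT 27). Tk1, thymidine kinase, was at 1.77 RPKM (KO 35) and 1.8 RPKM (KO 27), against 0.857 RPKM (WT 35) and 1.26 RPKM (WT 27). Both were higher in both KO libraries (log2 differences 0.55 and 0.44, limma adjusted p = 0.282 and 0.339). Rfc2, a subunit of the clamp loader, was at 3.13 RPKM (KO 35) and 2.06 RPKM (KO 27), against 4.1 RPKM (WT 35) and 4.09 RPKM (WT 27). Dbf4, which activates the origin kinase CDC7, was at 2.67 RPKM (KO 35) and 2.12 RPKM (KO 27), against 2.96 RPKM (WT 35) and 3.13 RPKM (WT 27). Both were lower in KO. Of the mitosis genes, Ckap2l, a spindle protein, was at 1.45 RPKM (KO 35) and 1.46 RPKM (KO 27), against 2.11 RPKM (WT 35) and 2.54 RPKM (WT 27). Spc24, a kinetochore subunit, was at 0.89 RPKM (KO 35) and 1.08 RPKM (KO 27), against 1.43 RPKM (WT 35) and 2.04 RPKM (WT 27). Mad2l1, a checkpoint protein, was at 1.0 RPKM (KO 35) and 1.39 RPKM (KO 27), against 1.54 RPKM (WT 35) and 2.28 RPKM (WT 27). These 3 were lower in both KO libraries, while Cks1b, a CDK subunit, overlapped at 12.1 RPKM (KO 35) and 7.4 RPKM (KO 27), against 6.14 RPKM (WT 35) and 7.84 RPKM (WT 27).

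Among inhibitors and E2F factors none passed between KO and WT either, but Wee1, Cdkn1a and E2f2 had larger log2 differences than any member, of which Gins2 had the largest, -0.62. Of 12 tested inhibitors and pocket proteins, 4 had an unadjusted p under 0.05, all higher in KO. Of all 10128 genes tested, 13.8% had such a p in either direction, and 827 had one and were higher. Over the whole list of 13 the median log2 difference was -0.06, with 5 genes higher in KO and 8 lower. The genes named here were picked for the lowest p of their lists in each comparison, so separation of their groups follows in part from the choice. Wee1, the kinase that holds CDK1 inactive, was at 11 RPKM (KO 35) and 9.78 RPKM (KO 27), against 5.89 RPKM (WT 35) and 5.04 RPKM (WT 27) (log2 difference 0.82, SE 0.15, limma adjusted p = 0.166). Cdkn1a, the inhibitor p21, was at 21.2 RPKM (KO 35) and 15.2 RPKM (KO 27), against 8.84 RPKM (WT 35) and 4.19 RPKM (WT 27) (log2 difference 1.41, SE 0.33, limma adjusted p = 0.205). Ccng2, a cyclin linked to cell cycle arrest, was at 2.83 RPKM (KO 35) and 2.34 RPKM (KO 27), against 1.52 RPKM (WT 35) and 1.68 RPKM (WT 27). Btg1, an antiproliferative gene, was at 10.5 RPKM (KO 35) and 12 RPKM (KO 27), against 8.99 RPKM (WT 35) and 7.55 RPKM (WT 27). For all 4 both KO libraries were above both WT libraries. Of 8 tested E2F factors and partners, E2f2 had the lowest p and was at 10.8 RPKM (KO 35) and 10.5 RPKM (KO 27), against 19.6 RPKM (WT 35) and 23.1 RPKM (WT 27) (log2 difference -0.93, SE 0.14, limma adjusted p = 0.138). KO libraries were both higher for E2f6, both lower for E2f7 and overlapped with WT for E2f4 (limma adjusted p = 0.492, 0.635 and 0.618). By number, Rb1, the retinoblastoma gene, was at 5.29 RPKM (KO 35) and 5.02 RPKM (WT 35), against 3.19 RPKM (KO 27) and 3.88 RPKM (WT 27) (limma adjusted p = 0.998). Btg2, a relative of Btg1, was at 22.6 RPKM (KO 35) and 23.8 RPKM (WT 35), against 19.3 RPKM (KO 27) and 18.4 RPKM (WT 27). The E2F partner Tfdp1 was at 4.6 RPKM (KO 35) and 5.25 RPKM (WT 35), against 6.87 RPKM (KO 27) and 6.61 RPKM (WT 27) (limma adjusted p = 0.998). E2f5 was at 1.92 RPKM (KO 35) and 1.7 RPKM (WT 35), against 2.11 RPKM (KO 27) and 2.47 RPKM (WT 27).

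Markers of several cell types were also compared by number, and none on the lists given here passed the limma test. All 6 alveolar type 2 markers had a higher group mean in the libraries numbered 35, 3 with no overlap, beside 17.5% of genes with a mean of at least 0.5 RPKM. On the log2(RPKM + 1) scale the list mean was 9.40 in KO 35 and 9.85 in WT 35, against 9.40 in KO 27 and 9.25 in WT 27, so the KO libraries were alike. Club cell means were 8.18 and 9.35 in KO 35 and WT 35, against 7.81 and 8.43 in KO 27 and WT 27, and multiciliated means 2.57 and 3.52 in KO 35 and WT 35, against 2.45 and 2.93 in KO 27 and WT 27. Of 6 alveolar type 1 markers, 2 were lower with no overlap, beside 14.4%. The list as a whole was split, with 3 markers higher and 3 lower and a median log2 difference of -0.02. Its means were 4.45 and 4.36 in KO 35 and WT 35, against 4.26 and 4.81 in KO 27 and WT 27. Distal tip progenitor means were 3.88 and 3.98 in KO 35 and WT 35, against 4.0 and 3.83 in KO 27 and WT 27. Endothelial means were 1.60 and 1.78 in KO 35 and WT 35, against 1.47 and 1.57 in KO 27 and WT 27. Mesenchymal means were 1.89 and 2.11 in KO 35 and WT 35, against 1.87 and 1.73 in KO 27 and WT 27. With genotype instead, all 5 immune markers were higher in KO with no overlap, beside 28.7% of genes with a mean of at least 0.5 RPKM, which 4 of the 5 reach (mean 1.10 for KO 35 and 1.39 for KO 27, against 0.556 for WT 35 and 0.736 for WT 27). Their defining gene Ptprc was at 0.185 RPKM (KO 35) and 0.401 RPKM (KO 27), against 0.0616 RPKM (WT 35) and 0.177 RPKM (WT 27). Also by genotype, all 4 multiciliated and 2 of 3 club markers were lower in KO with no overlap, beside 16.5% of genes with a mean of at least 0.5 RPKM. The median log2 differences of these lists, KO minus WT, were -0.72 (multiciliated) and -0.94 (club), and 0 of their markers had a higher mean in KO. None of them passed the limma test. The epithelial mean was 6.14 for KO 35 and 6.09 for KO 27, against 5.88 for WT 35 and 5.86 for WT 27. WT 35, the lowest library for most members, also held the largest share of RPKM in 10 genes, 26.5%, against 14.1% to 20.5% in the others. The part of any of these in the results above was not tested.

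In the authors' deposited table, whose direction is not stated, 30 of 40 members had a negative fold change and 1, Gins2, a p-value under 0.05. The sign was opposite to the difference of the mean RPKM by heading for 13 of 40 members and for 2885 of 8967 genes above 1 RPKM in all libraries. RefSeq lists pseudogenes of Pcna, Tyms, Ccnd3, Ccnb1 and Ccnb2, whose reads the authors' counting could have split, so levels of these 5 members are uncertain.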

How the data were processed

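RNA-seq of EpCAM-sorted lung cells was analysed in 4 libraries, 2 KO and 2 WT. Per the labels, RNA came from an RNeasy Micro kit and libraries from the Nextera XT kit; per the submitters' processing notes, the tools were TopHat2 2.0.8, DESeq, Bowtie2 2.1.0, and Cufflinks 2.0.2, and the build mm10; their roles, the annotation and any read filter are not stated in the sources used here. Per the file headers, the deposited values are RPKM, not log transformed; whether they are the related FPKM of Cufflinks is not given. The authors' p-value, which carries no mark of adjustment, and the signed fold change of the authors, a score whose direction is not stated, were used only where named.

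Genes that reached 1 RPKM in 2 or more libraries (10128; 5819 were at 0 throughout) entered limma 3.58.1 (R 4.3.3) as log2(RPKM + 1), with a variance trend, 2 residual and 3.65 (KO against WT) or 3.05 (35 against 27) prior degrees of freedom, two-sided p, Benjamini-Hochberg adjustment over all tested genes and a threshold of 0.05. The scale understates changes of genes of low RPKM. An exact test of 2 against 2 libraries cannot go below p = 0.333, so none was used. The libraries of a group differed in sex, so they came from different animals; whether each is 1 animal or a pool is not given, and p-values measure the spread between these libraries. The limma script was tested on simulated data. Alternatives were pseudocounts of 0.1 and 5, other filters, quantile and total scaling, limma without trend, a replicate block (the heading number for KO against WT, the genotype for 35 against 27) and each library left out; a filter on a mean of 0.5 RPKM and replication sums without Pcna were added after the data were seen. The planned test for counts does not apply to RPKM.

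The members, gene lists, motifs and named genes (all members, Emc3, and per pathway list up to 4 genes by p in KO against WT and 2 in 35 against 27) were chosen with earlier results of these data known. Gene positions and promoters are from RefSeq (GRCm38.p6), matched by symbol. Python 3.11.15 with pandas 2.3.3 and matplotlib 3.10.9 was used for summaries and figures. The number of reads is unknown and no counting interval is given; relative depth was read from the steps between RPKM values under 0.1. Results of 1 marker gene and its list are not reported here.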

Additional observations from a re-analysis of the deposited data

Results flagged for a closer look

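The median KO against WT difference had opposite signs in the libraries numbered 35 and in those numbered 27. For the mitosis members the median log2 difference, KO minus WT, was 0.059 between KO 35 and WT 35 and -0.23 between KO 27 and WT 27. For the replication members it was 0.20 in the libraries numbered 35 and -0.0035 in those numbered 27, where 6 genes were higher and 7 lower in KO, an almost even split. For all 40 members it was 0.11 in the libraries numbered 35 and -0.044 in those numbered 27. Over all 10128 genes tested it was 0.051 and 0.063. Each median compares 1 library with 1, and the difference between the pairs was not tested. KO 35 and WT 35 are female and male, and KO 27 and WT 27 male and female, so the change of sign cannot be told apart from a difference by sex.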

How the results depend on the processing

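No member passed the threshold in either comparison under any setting: the lowest adjusted p was 0.209 for KO against WT and 0.536 for 35 against 27, both with the replicate block, which is the heading number in the first and the genotype in the second. The replicate numbers are not shown to pair the libraries (correlation of deviations 0.148 over 10128 genes, 2 pairs). In this balanced layout the block cannot move a difference: the median for 35 against 27 over all members is -0.33 with and without it. The filters and the variance model cannot move these medians either. Under the settings that can (pseudocount, quantile and total scaling, a library left out), the 35 against 27 medians of all members, replication and mitosis were negative. They moved beyond the spread between libraries with the pseudocount: with 0.1 they were -0.63 for all members, -0.37 for replication and -0.89 for mitosis, and with 5 they were -0.11, -0.055 and -0.15. This follows from the scale, on which a larger pseudocount shrinks differences of low values. With a library left out, the replication median ran from -0.23 to -0.12 and the mitosis median from -0.59 to -0.36. The replication median also moved beyond the spread between libraries at both ends of this range, without KO 35 (-0.23) and without WT 35 (-0.12). The KO against WT medians changed sign with the library left out: from -0.15 to 0.22 for all members and from -0.32 to 0.22 for mitosis, while replication ran from 0.014 to 0.18; the cause was not tested. Over all genes, the count past the threshold for KO against WT was 7, and 30 with total scaling, 28 without WT 35, 43 without WT 27 and 2 with no filter. For 35 against 27 it was 4, and from 1 with no filter to 7 with total scaling. Of single members' values, 18 of 520 moved by more than the spread between libraries for KO against WT and 44 of 520 for 35 against 27. The 520 include the filters, the variance model and the block, which cannot move a single value either, so these shares understate the movement. Unknown depth limits the members of low RPKM, whose counting error could not be computed.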
